A study of Mus musculus with 12 samples.

Results

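The subject is 6 genes, Enpp2, Enpp3, Emb, Prss50, Myrf and Foxi3, in mouse embryonic stem cells leaving the naive state. They were taken by name from a table of 47729 genes. They had been chosen by the measured FPKM, which was much higher after 24 h of induction than in 2i medium with LIF, and because they are not among the markers usually followed in this transition. The choice had no stated size threshold. All 6 passed the filter on low values, as did 13981 genes in all, and Enpp2 did so only through its 24 h libraries. Since the change from 0 h to 24 h chose the genes, that change is described below without a test. The genotype comparison was tested at 12 h, in libraries that the choice did not use. The spread behind its p-values and intervals was estimated from all 12 libraries, so those of 0 h and 24 h entered it. The comparison was also computed averaged over times. That average draws on the 0 h and 24 h libraries whose values chose the genes and is therefore not independent of the choice.

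RNA was sequenced from 12 libraries of E14Tg2a cells (strain 129/Ola), 2 libraries in each of 6 groups. One line was wild type (WT). The other lacked 0.7 kb of a regulatory region of Tcf15 on both alleles, and Tcf15 encodes a transcription factor of the basic helix-loop-helix class; the name delta stands here for this line, labelled delta 0.7. WT and delta cells were each taken in serum-free 2i medium with LIF (0 h) and after 12 h and 24 h on fibronectin in N2B27 medium with Activin, bFGF and KOSR. Every group at 12 h and 24 h thus had fibronectin, Activin, bFGF and KOSR together, and none of these is named for any group at 0 h. All delta libraries bear 1 clone's name, and effects of the deletion and of that clone cannot be told apart. Nothing in the labels describes the 2 replicates as separate cultures, so p-values measure only the spread between these libraries, which may be technical. Levels are FPKM, fragments scaled to exon length and library size, as the authors deposited them; differences are on the log2(FPKM + 1) scale, which understates the change of low genes.

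Naive embryonic stem cells resemble the epiblast before implantation. On Activin and FGF they lose naive transcription factors, gain formative ones and become epiblast-like cells. The 6 genes serve other processes. Enpp2 encodes autotaxin, a secreted enzyme that makes the signalling lipid lysophosphatidic acid (LPA), and Enpp3 encodes a membrane-bound relative that cleaves extracellular nucleotides. Emb encodes embigin, a membrane glycoprotein of the immunoglobulin superfamily that escorts monocarboxylate transporters. Prss50 belongs to the serine protease family and is known from the testis. Myrf encodes a membrane-anchored transcription factor that cleaves itself to reach the nucleus and is best known for switching on myelin genes in oligodendrocytes. Foxi3 encodes a forkhead transcription factor of the preplacodal ectoderm and the pharyngeal arches.

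The stretches directly upstream of the annotated starts are shown because E-boxes are the core letters that basic helix-loop-helix factors, the class of Tcf15, bind. RefSeq promoter sequences (build GRCm38.p6) were matched for 4 of the 6 genes, and Enpp2 and Myrf are named only. Each line gives the 250 bases before the RefSeq start, 5′ to 3′ on the strand of the gene. Capitals mark matches, on either strand, to an E-box (CANNTG), to TATAAA and to CCAAT; none of the capitalised matches overlap. The stretches are chr10:24836196-24836445 on the minus strand (Enpp3), chr13:117220323-117220572 on the plus strand (Emb), chr9:110857714-110857963 on the plus strand (Prss50) and chr6:70956356-70956605 on the plus strand (Foxi3).
Enpp3: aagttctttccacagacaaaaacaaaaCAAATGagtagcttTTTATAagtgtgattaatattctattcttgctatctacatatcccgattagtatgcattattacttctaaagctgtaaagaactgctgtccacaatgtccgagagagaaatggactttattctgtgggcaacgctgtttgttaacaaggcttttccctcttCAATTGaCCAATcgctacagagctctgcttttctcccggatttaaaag
Emb: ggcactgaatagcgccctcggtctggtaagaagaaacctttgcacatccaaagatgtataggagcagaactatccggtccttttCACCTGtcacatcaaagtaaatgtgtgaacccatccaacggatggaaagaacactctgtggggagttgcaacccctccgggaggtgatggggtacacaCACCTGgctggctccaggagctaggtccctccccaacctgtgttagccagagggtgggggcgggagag
Prss50: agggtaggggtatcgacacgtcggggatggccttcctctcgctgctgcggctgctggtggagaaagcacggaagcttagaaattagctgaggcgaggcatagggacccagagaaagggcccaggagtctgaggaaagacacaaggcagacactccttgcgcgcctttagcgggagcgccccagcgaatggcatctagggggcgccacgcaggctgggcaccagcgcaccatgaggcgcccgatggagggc
Foxi3: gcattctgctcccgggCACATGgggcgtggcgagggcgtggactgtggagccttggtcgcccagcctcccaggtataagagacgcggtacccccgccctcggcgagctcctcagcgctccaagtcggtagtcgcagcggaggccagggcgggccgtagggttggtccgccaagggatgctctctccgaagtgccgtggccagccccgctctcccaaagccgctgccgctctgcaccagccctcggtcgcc

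The 4 stretches differed in make-up. Foxi3 had 24 CpG dinucleotides and 70.4% G and C, Prss50 had 17 and 63.6%, Emb had 6 and 54.8%, and Enpp3 had 5 and 36.8%. The median of 32851 stretches of the same length was 6 CpG and 52.4%. E-box letters occurred 2 times upstream of Enpp3, 2 times upstream of Emb (both CACCTG), 1 time upstream of Foxi3 and 0 times upstream of Prss50, and 66.2% of all stretches held at least one. TATAAA was found for Enpp3 alone among the 4 genes, beginning 209 bases before the start (12.4% of all stretches held it), and so was CCAAT, beginning 41 bases before the start (33.8%). The GC box letters GGGCGG, left in lower case, occurred 1 time for Emb and 2 times for Foxi3 (32.7%). The octamer ATGCAAAT (1.60%), the forkhead letters TGTTTAC (3.17%) and the grainyhead letters AACCGGTT (0.116%) were in none of the 4 on either strand. These matches describe the letters in these windows only. The RefSeq start of Enpp3 lies 6628 bp, and that of Emb 12037 bp, inside the GENCODE M21 gene, so these cells may use another start; this was not tested.

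The whole table was checked first. Recovered depth was 9740852 to 17571260 reads per library. Tcf15, whose regulatory region was deleted, stood at 28.8 and 57.1 FPKM in the WT libraries at 12 h and at 1.04 and 1.06 in the delta libraries (difference −4.34 log2 units, limma adjusted p = 0.047, 0.0014 to 0.72 over the alternatives). Averaged over times it differed by −3.27 (adjusted p = 0.0050, 8.0e-05 to 0.040 over the alternatives). Leaving out any of the 10 libraries that are not WT at 0 h ended the 12 h call (adjusted p = 0.077 to 0.72). The markers of the labelled cell state were all measured. Of 15 naive markers 11 fell and 1 rose by 24 h in WT cells (12 and 2 in delta), and of 14 formative markers 12 rose in WT and 13 in delta. Among all genes tested, 5.27% rose and 4.94% fell in WT cells, and 7.58% rose and 7.8% fell in delta cells (limma, adjusted p under 0.05), 10.2% and 15.4% in either direction. The libraries also differed within groups. Ribosomal protein genes took 11.5% and 13.5% of reads in the replicate 1 libraries at 0 h and 5.79% to 7.57% elsewhere, and the mitochondrial genome supplied 0.447% to 0.647% of the replicate 1 reads and 1.80% to 2.87% of the replicate 2 reads. The summed level of 14 fibroblast markers was 22.6, 50.7 and 45.1 FPKM in the 3 WT replicate 1 libraries and 2.66 to 8.41 in the other 9.

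Enpp2 (ENSMUSG00000022425), the autotaxin gene, lies on chromosome 15 from 54838901 to 54952892 on the minus strand (mm10). At 0 h its level was 0.256 FPKM (9 reads) in WT replicate 1 and 0.0328 FPKM (2 reads) in delta replicate 2, and it was listed at 0 in the other two 0 h libraries. At 12 h it stood at 0.430 and 0.519 FPKM in WT and at 0.531 and 0.313 in delta. At 24 h it stood at 16.6 and 15.5 FPKM in WT and at 20.9 and 14.3 in delta. All 4 libraries at 24 h lay far above all 8 earlier ones, and WT and delta overlapped at each time. Taking 3 reads in a library as the limit that a count of 0 allows, the 24 h level was at least 233-fold higher than at 0 h in WT replicate 2 and at least 217-fold higher in delta replicate 1. Such limits cover counting error only and rest on a gene length fitted to the values. In WT replicate 1, with its 9 reads, the ratio was 64.9. That library is also one of the 3 with the high fibroblast sum, and the part of that signal in its Enpp2 reads was not tested. In bulk RNA, fewer cells with a transcript and less transcript per cell cannot be told apart.

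Enpp3 (ENSMUSG00000019989), the membrane-bound nucleotide pyrophosphatase, lies on chromosome 10 from 24772406 to 24842823 on the minus strand. In WT its level was 1.61 and 2.05 FPKM at 0 h, 20.1 and 15.3 at 12 h and 33.5 and 39.1 at 24 h. In delta it was 1.19 and 1.44 at 0 h, 29.1 and 16.7 at 12 h and 44.2 and 46.2 at 24 h. The times did not overlap in either genotype. From group means the 24 h level was 19.8 times the 0 h level in WT and 34.5 times in delta. Replicates were close on this ratio, at 20.8 and 19.1 in the WT pairs and 37.2 and 32.2 in the delta pairs, where the 0 h libraries held 30 to 75 reads of Enpp3.

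Emb (ENSMUSG00000021728), the transporter escort, lies on chromosome 13 from 117208536 to 117274415 on the plus strand. It was the most abundant of the 6 genes at 24 h. Its WT levels were 7.62 and 1.16 FPKM at 0 h, 30.7 and 10.8 at 12 h and 88.6 and 61.7 at 24 h. Its delta levels were 6.38 and 1.64 at 0 h, 43.0 and 26.5 at 12 h and 110 and 95.5 at 24 h. Replicate 1 was above replicate 2 in 6 of 6 groups, by 6.58 times in WT and 3.89 times in delta at 0 h and by 1.43 and 1.16 times at 24 h; 11.8% of all genes tested were higher in replicate 1 in all groups. The 24 h to 0 h ratio therefore depended on the replicate, at 11.6 and 53.3 in WT and 17.3 and 58.2 in delta. The fibroblast sum in delta was 2.95 to 6.33 FPKM in replicate 1 and 3.56 to 8.41 in replicate 2. The part of the ribosomal, mitochondrial and fibroblast reads in the replicate differences of Emb was not tested.

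Emb shares its locus with Gm17509, an annotated protein-coding gene on the opposite strand. Gm17509 stood at 1.25 and 0.259 FPKM at 0 h, 6.83 and 2.19 at 12 h and 19.5 and 11.3 at 24 h in WT, and at 2.11 and 0.431, 9.93 and 6.14, and 22.0 and 17.1 in delta. It was thus also higher in replicate 1 in all groups. It rose by 3.24 log2 units in WT (limma adjusted p = 0.0049) and by 3.27 in delta (adjusted p = 0.0034); without WT 24 h replicate 1 the WT rise was 2.87 (adjusted p = 0.051). The annotated starts of the 2 genes lie 12.5 kb apart, and the length that fitted the Emb values was 2253 against 6906 annotated. No source used here gives the strand setting or the exons of the counting. Whether reads of one gene were counted for the other was not tested.

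Prss50 (ENSMUSG00000048752), the testis protease relative, lies on chromosome 9 from 110857967 to 110864629 on the plus strand. At 0 h it was represented by 5 and 3 reads in WT (0.339 and 0.158 FPKM) and by 1 and 3 reads in delta (0.0766 and 0.117 FPKM). At 12 h its level was 12.7 and 24.8 FPKM in WT and 8.49 and 11.1 in delta. At 24 h it was 24.6 and 24.7 FPKM in WT and 15.2 in both delta libraries. Delta lay below WT at each time, and the replicates at 24 h were closer to each other than for any other of the 6 genes. In WT replicate 2 the 12 h level already equalled that at 24 h, whereas in replicate 1 it was 51.8% of it.

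Myrf (ENSMUSG00000036098), the myelin gene activator, lies on chromosome 19 from 10208272 to 10240748 on the minus strand. Its WT levels were 0.519 and 0.0807 FPKM at 0 h, 17.2 and 6.36 at 12 h and 30.8 and 24.0 at 24 h. Its delta levels were 0.130 and 0.226 at 0 h, 14.6 and 11.6 at 12 h and 31.7 and 35.2 at 24 h. Every 24 h library lay above every 12 h library, and every 12 h library above every 0 h library. The 24 h level was 59.3 and 298 times the 0 h level in the WT pairs and 243 and 156 times in the delta pairs, where the 0 h libraries held 9 to 45 reads of Myrf. The 45 reads are in WT replicate 1, a library with the high fibroblast sum. Replicate 1 stood at 6.43, 2.71 and 1.28 times replicate 2 in WT at 0, 12 and 24 h. In delta it stood at 0.576, 1.26 and 0.900 times. The part of the fibroblast signal in these differences was not tested.

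Foxi3 (ENSMUSG00000055874), the preplacodal forkhead gene, lies on chromosome 6 from 70956531 to 70961066 on the plus strand. Its WT levels were 0.462 and 1.68 FPKM at 0 h (6 and 28 reads), 7.72 and 9.85 at 12 h and 18.3 and 26.2 at 24 h. Its delta levels were 0.174 and 0.222 FPKM at 0 h (2 and 5 reads), 8.64 and 7.87 at 12 h and 25.4 and 33.5 at 24 h. The genotypes stood apart at 0 h, where delta was lower, and overlapped at 12 h and 24 h. The 24 h level was 39.5 and 15.6 times the 0 h level of the same replicate in WT and 146 and 151 times in delta.

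**Figure D1:**
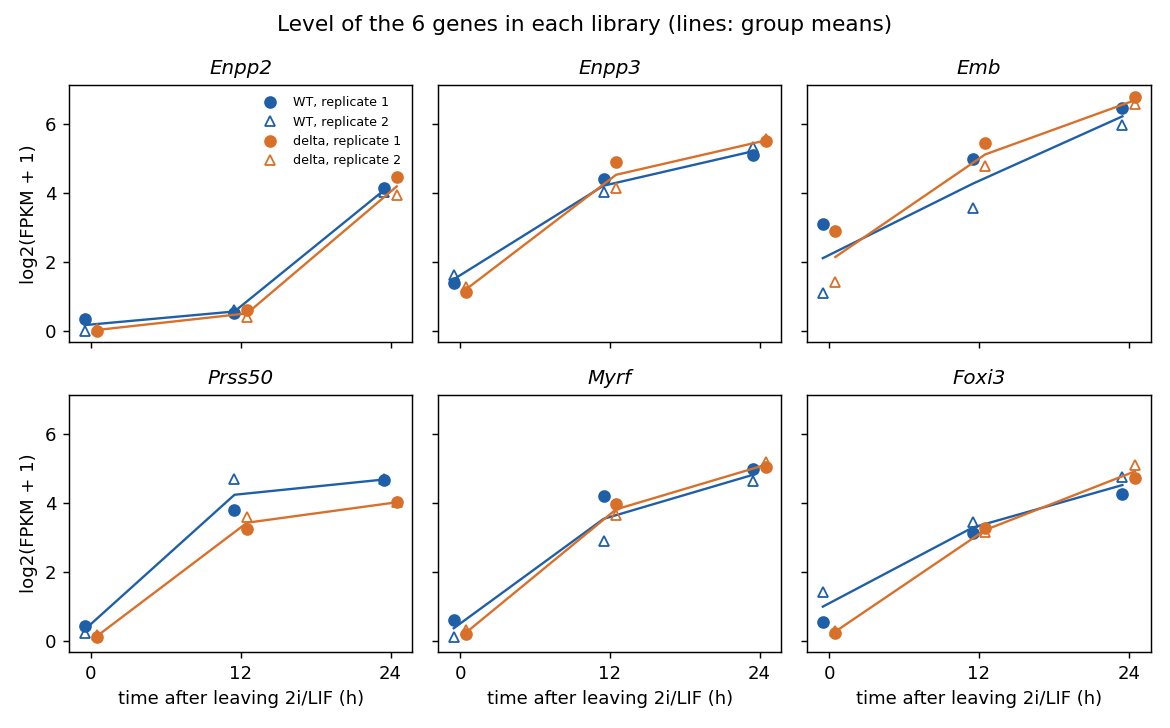
Level of each gene, as log2(FPKM + 1), against time after leaving 2i/LIF in hours, with a point for each of the 12 libraries (WT blue, delta orange, replicate 1 filled circles, replicate 2 open triangles) and lines through group means. Enpp2 stays near 0 until 12 h and reaches 14.3 to 20.9 FPKM at 24 h, the other 5 genes are up by 12 h, and the delta points of Prss50 lie below the WT points at each time.

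On the log2(FPKM + 1) scale the differences between 24 h and 0 h were 3.93 (WT) and 4.17 (delta) for Enpp2, with a standard error (SE) of the model of 0.22, and 3.72 and 4.32 for Enpp3 (SE 0.26). They were 4.12 and 4.55 for Emb (SE 0.72) and 4.36 and 3.88 for Prss50 (SE 0.28). They were 4.46 and 4.87 for Myrf (SE 0.38) and 3.53 and 4.65 for Foxi3 (SE 0.30). Ranked among all 13981 genes, these changes stood between places 3 and 11 in WT and between places 3 and 14 in delta, which is what chose the genes. The medians over all genes were −0.03 and −0.05. With a pseudocount of 0.1 the low genes gave larger values, up to 6.42 for Enpp2 in WT and 7.24 in delta.

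By level at 24 h, WT cells had Emb first with 75.1 ± 19 FPKM (SD, n = 2), then Enpp3 with 36.3 ± 3.92, Myrf with 27.4 ± 4.78, Prss50 with 24.6 ± 0.0698, Foxi3 with 22.2 ± 5.57 and Enpp2 with 16 ± 0.81. Libraries of Myrf overlapped those of Prss50, and those of Prss50 overlapped those of Foxi3; other neighbours in this order did not overlap. In delta cells the order was Emb with 103 ± 10.6, Enpp3 with 45.2 ± 1.39, Myrf with 33.5 ± 2.5, Foxi3 with 29.4 ± 5.70, Enpp2 with 17.6 ± 4.69 and Prss50 with 15.2 ± 0.0210. There Myrf overlapped Foxi3 and Enpp2 overlapped Prss50. By mean level Prss50 thus stood above Foxi3 and Enpp2 in WT and below both in delta. Among the genes tested 81.1% had a lower 24 h level than Prss50 in WT and 71.2% in delta. For Emb these shares were 94.6% and 96.3%.

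The genes differed in how much of the 24 h level was present at 12 h. By group means Prss50 had the highest share, at 76.3% in WT and 64.5% in delta, followed by Enpp3 (48.8% and 50.7%), Myrf (43.0% and 39.1%), Foxi3 (39.5% and 28.1%) and Emb (27.6% and 33.7%). Enpp2 stood apart at 2.96% and 2.40%. This order of the means did not hold in each replicate. In replicate 1 Enpp3 (59.9% in WT, 65.8% in delta) was above Prss50 (51.8% and 56.0%), and in WT so was Myrf (55.9%). In replicate 2 Enpp3 stood at 39.3% and 36.2%, Myrf in WT at 26.5%, and Prss50 was highest in both genotypes. The replicates were close for Enpp2 (2.59% and 3.36% in WT, 2.54% and 2.19% in delta). As a description, since these shares use the 24 h libraries, the median over the 737 genes called higher at 24 h in WT was 63.4%, and over the 1060 in delta it was 68.9%. A lower share than that of Enpp2 was found in 0.678% of those genes in WT and 0.943% in delta. Among the formative markers, the growth factor gene Fgf5 (2.58% and 2.02%) and the POU factor gene Pou3f1 (8.67% and 6.83%) were also low at 12 h, whereas Otx2 stood at 47.6% and 47.1% and Dnmt3l at 79.0% and 92.6%.

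**Figure D2:**
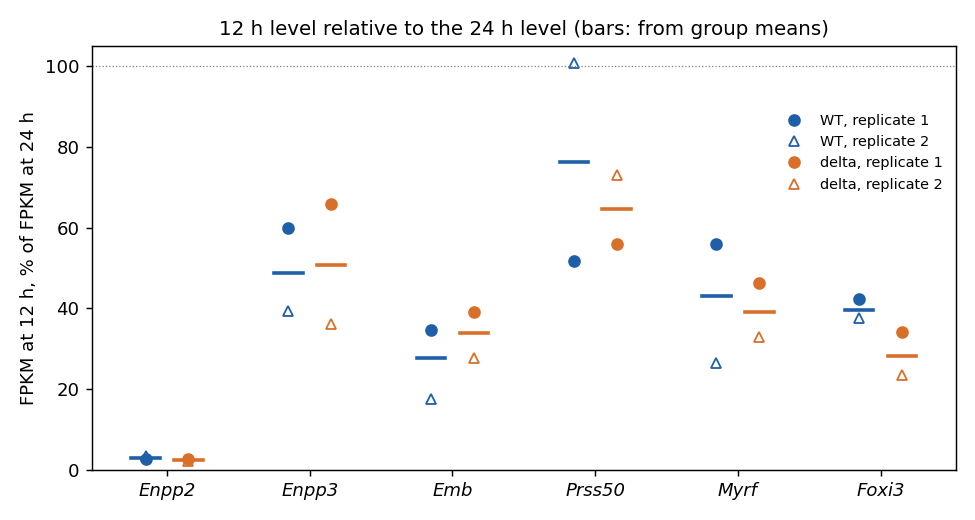
FPKM at 12 h as a percentage of FPKM at 24 h, for each gene, by same-numbered replicate (points) and from group means (bars), with WT in blue and delta in orange. Enpp2 lies at 2.19% to 3.36% in all 4 pairs, and Prss50 has the highest bars at 76.3% and 64.5%.

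The comparison of genotypes asked whether the deletion of the Tcf15 regulatory region altered these genes. In limma's model of all genes, 0 of the 6 passed an adjusted p of 0.05 at 12 h or averaged over times, where 0% of all genes tested were called higher and 0.0143% lower in either comparison. With voom on recovered reads 0 of 6 passed as well. In limma's main model without a replicate block, 1 of the 6 genes, Prss50, was lower at an unadjusted p under 0.05 in both comparisons. Over all genes 0.501% were higher and 0.386% lower at 12 h, and 2.25% and 2.08% averaged over times. The median of the 6 differences was 0.11 at 12 h and 0.04 averaged over times, against 0.01 and 0.01 over all genes.

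Prss50 showed the most regular genotype difference of the 6. Delta was at 0.667 and 0.447 times WT in the 12 h pairs and at 0.618 and 0.616 times in the 24 h pairs. The difference at 12 h was −0.81 ± 0.28 log2 units (SE; 95% interval −1.44 to −0.19; limma adjusted p = 1). Averaged over times, with the choosing libraries included, it was −0.55 ± 0.16 (interval −0.91 to −0.19; limma adjusted p = 1.00, range 0.14 to 1.00 over the alternatives). Delta was lower in 6 of 6 same-numbered pairs, as were 7.01% of all genes tested (6.84% were higher in all), and its libraries lay below those of WT at all 3 times, as in 0.987% of genes. The 12 h value leaned on WT 12 h replicate 2, the highest library at that time, without which it was −0.36, while without WT 12 h replicate 1 it was −1.27. The 0 h level rests on 1 to 5 reads a library. The result failed the correction for multiple tests.

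For the other 5 genes the intervals of the main model at 12 h held values of both signs. Enpp2 differed by −0.06 (−0.55 to 0.44) and Foxi3 by −0.07 (−0.75 to 0.61). At 12 h Enpp2 stood at only 0.313 to 0.531 FPKM (15 to 26 reads). On this scale even its full loss in delta could hardly show. Myrf differed by 0.28 (−0.57 to 1.13) and Enpp3 by 0.32 (−0.26 to 0.90). Emb differed by 0.85 (−0.77 to 2.47), the widest interval of the 6, and delta was higher in 5 of 6 pairs. These intervals come from the model without a replicate block. Its unadjusted limma p for Emb was 0.27, against 0.064 with the replicate block (0.25 for Enpp3 in both). A block within each time, added after seeing the data, gave 0.0076 for Emb and 0.048 for Enpp3. Their adjusted p was then 0.96 and 0.97. The lowest unadjusted p over other settings with all libraries was 0.36 for Myrf, 0.73 for Enpp2 and 0.75 for Foxi3. With 2 libraries a group, changes up to the ends of these intervals remain possible. The intervals are not adjusted for the number of genes tested, so they do not show which changes would have been called. Averaged over times the values were −0.03 (−0.32 to 0.26) for Enpp2, −0.13 (−0.53 to 0.26) for Foxi3, 0.15 (−0.34 to 0.64) for Myrf, 0.11 (−0.22 to 0.45) for Enpp3 and 0.45 (−0.48 to 1.39) for Emb. Adjusted p-values in limma's main model were 1.00 for all 5 in both comparisons.

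**Figure D3:**
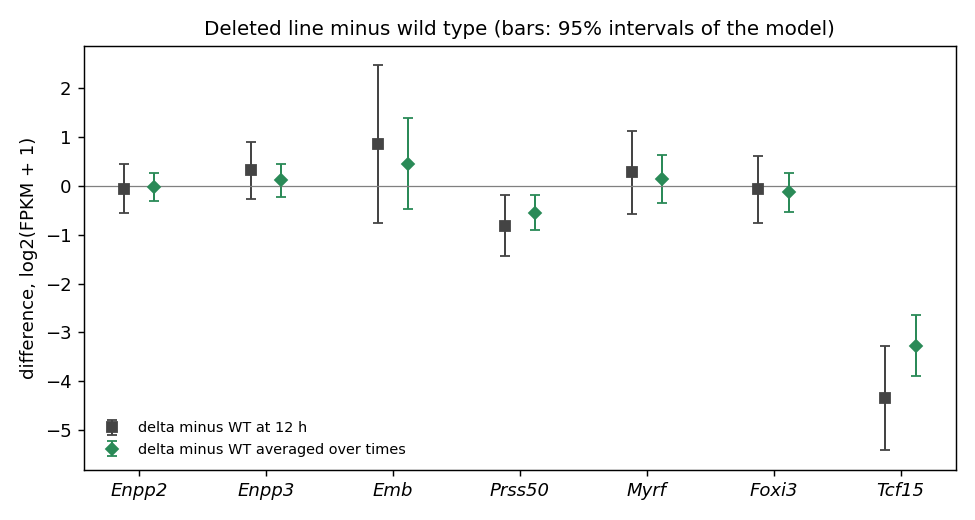
Delta minus WT on the log2(FPKM + 1) scale at 12 h (squares) and averaged over the 3 times (diamonds), with 95% intervals of the model, for the 6 genes and for Tcf15. Among the 6 genes only the intervals of Prss50 leave out 0 (−1.44 to −0.19 and −0.91 to −0.19), with adjusted p-values of 1, and Tcf15 lies at −4.34 and −3.27.

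The libraries that the choice used showed other patterns between genotypes, given here as values. Delta lay below WT without overlap at 0 h for Enpp3, Prss50 and Foxi3, where 6.21% of all genes tested did so and 6.52% lay above. Delta lay above WT without overlap at 24 h for Enpp3, Emb and Myrf, where 14.3% of all genes did so and 16.4% lay below. For Enpp3 the pairs ran at 0.737 and 0.702 times WT at 0 h and 1.32 and 1.18 times at 24 h, so its rise was larger in delta from both ends. At 12 h, Prss50 alone of the 6 did not overlap between genotypes; 15.2% of all genes were lower and 16.8% higher without overlap at that time.

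The relatives and partners of each gene were then read from lists (limma, change from 0 h to 24 h). Of the other 5 genes of the Enpp family, Enpp4 alone was measured above the filter, at a mean of 1.05 FPKM over the 12 libraries, and it changed by 0.19 in WT (adjusted p = 0.56) and 0.57 in delta (adjusted p = 0.058, and 0.031 with voom on recovered reads). Enpp1, which makes extracellular pyrophosphate, averaged 0.0164 FPKM. Thus Enpp2 and Enpp3 were the abundant family members at 24 h. Of 11 other ectonucleotidases and adenosine receptors, 3 were kept and 0 were called by limma or by voom; at an unadjusted p under 0.05, 0 were counted in WT and 1, Entpd5, was higher in delta (0.51). The most abundant was Entpd6, at a mean of 4.05 FPKM. Their changes ran from −0.24 (Nt5e, which makes adenosine) to 0.43 (Entpd6) in WT.

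Genes that receive or remove LPA, the product of autotaxin, were already present at 0 h. Of 9 in the list 8 were kept, and 1 rose and 1 fell in each genotype; both were singled out after their values were seen. The receptor gene Lpar2 rose from 1.70 to 6.25 FPKM in WT (1.43 log2 units, adjusted p = 0.010) and from 1.64 to 5.05 in delta (1.24, adjusted p = 0.015). Without WT 0 h replicate 2 or WT 24 h replicate 1 its adjusted p in WT was 0.057 or 0.084, and without either delta 24 h library that in delta was 0.089 or 0.092. Lpar5 fell from 9.08 to 4.51 FPKM in WT (−0.86, adjusted p = 0.047) and from 8.42 to 3.68 in delta (−0.99, adjusted p = 0.021). The WT call of Lpar5 was lost with voom, with no filter on low values and with a stricter filter. Its WT call was lost without any library except WT 0 h replicate 1 and the delta 0 h libraries (adjusted p up to 0.24), and its delta call without either delta 24 h library (0.087 and 0.14). The most abundant LPA genes, those of the phosphatases Plpp1 (−0.07 in WT, 0.04 in delta) and Plpp3 (−1.27 and −1.42, adjusted p = 0.14 and 0.081) and the receptor Lpar1 (0.15 and 0.16), were not called. The median of the list was 0.21 in WT and 0.10 in delta, against −0.03 and −0.05 over all genes.

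Embigin has relatives and partner transporters, of which 6 were listed and 4 were kept, with 0 called by limma in WT (by unadjusted p under 0.05, 1 was higher and 2 were lower) and 1 lower in delta. Bsg, the gene for basigin, the main escort of monocarboxylate transporters, went from 259 to 162 FPKM in WT (−0.63, adjusted p = 0.16) and from 281 to 161 in delta (−0.79, adjusted p = 0.067). Nptn, the neuroplastin gene, changed by −0.63 in WT (adjusted p = 0.085) and fell by 0.75 in delta (adjusted p = 0.036), a call that remained when WT 0 h replicate 1, WT 0 h replicate 2 or delta 0 h replicate 2 was left out and ended with any other library left out (up to 0.18). The lactate exporter gene Slc16a3 went from 9.57 to 55.1 FPKM in WT (3.0, adjusted p = 0.056, and 0.045 with voom on recovered reads) and from 17.1 to 69.2 in delta (1.93, adjusted p = 0.16), and Slc16a1 changed by −0.23 and −0.52. Slc16a7 averaged 0.00351 FPKM. The delta call of Nptn also ended with quantile normalization. The list's median was −0.43 in WT and −0.63 in delta.

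Of 15 other serine proteases known from the testis 5 were kept, and 2 rose in each genotype, Prss45 and Prss46, which lie beside Prss50 on chromosome 9. Prss46, whose start is 13.5 kb from that of Prss50, was listed at 0 in all 4 libraries at 0 h. It stood at 3.67 and 2.90 FPKM at 12 h and at 2.38 and 3.80 at 24 h in WT, and at 3.40 and 3.13 and then 1.5 and 2.30 in delta (24 h against 0 h 2.01, adjusted p = 0.00082, and 1.52, adjusted p = 0.0025). Prss45, 23.4 kb away, rose by 1.47 in WT (adjusted p = 0.0011) and 0.95 in delta (adjusted p = 0.0075, and 0.075 without delta 24 h replicate 2). Prss45 passed the filter on low values only through its 24 h libraries, at 1.05 to 1.83 FPKM. Its calls are therefore not independent of that filter, though they also held with no filter. Prss42, 59.8 kb away, went from 0.208 to 1.77 FPKM in WT (1.06, adjusted p = 0.25). Prss41 (0.19 in WT) and Tmprss12 (0.24) were not called. The list's median was 1.06 in WT and 0.91 in delta. Averaged over times, delta minus WT was −0.16 for Prss46 and −0.05 for Prss45, beside −0.55 for Prss50 (adjusted p = 1.00 for each).

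Of 11 listed myelin targets, partners and relatives of Myrf 4 were kept, and 1 fell in each genotype. By limma 0 rose, also at an unadjusted p under 0.05 and with voom. The gene that fell was Mobp, a myelin gene whose level in WT went from 1.91 FPKM at 0 h to 0.0120 at 24 h and whose level in delta went from 2.56 to 0.0279 (−1.52, adjusted p = 0.0015, and −1.79, adjusted p = 0.00051); it was singled out after its values were seen. Mobp passed the filter on low values only through its 0 h libraries, so its calls are not independent of that filter. They also held with no filter. Cnp changed by 0.04 and 0.36, Rffl by 0.19 and 0.12, and Tmem98, whose product restrains the self-cleavage of Myrf, by 0.21 and 0.35, and none was called. Of 14 oligodendrocyte markers, Mobp and Cnp among them, 12 were under 1 FPKM in every library and Opalin was at 0 in all; the summed level was 14.4 to 25.3 FPKM over the 12 libraries, mostly from Cnp, with a mean of 19.1.

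For Foxi3, its paralogs were near 0: Foxi2 was listed at 0 in all libraries and Foxi1 averaged 0.00273 FPKM. Of 18 preplacodal and surface ectoderm markers, among which Foxi1 and Foxi2, 6 were kept and 10 stayed under 1 FPKM in every library. Among those described here, 2 rose in both genotypes. The homeobox gene Six4 rose by 1.11 in WT (adjusted p = 0.0048, and 0.052 without WT 24 h replicate 1) and by 1.31 in delta (adjusted p = 0.0016). The keratin gene Krt18 rose by 2.17 (adjusted p = 0.0097, and 0.057 or 0.066 without WT 0 h replicate 2 or WT 24 h replicate 1) and by 2.36 (adjusted p = 0.0048). Tfap2a and Eya1, also of this territory, fell in WT (−1.74, adjusted p = 0.033, and −1.45, adjusted p = 0.025), and Eya1 fell in delta (−1.21, adjusted p = 0.039). Each of the latter calls was lost without single libraries, WT 0 h replicate 2 and both WT 24 h libraries for the WT calls, both WT 24 h and both delta 24 h libraries for the delta call, and others (adjusted p up to 0.20). The calls of Tfap2a and Eya1 were also lost with no filter on low values. Krt8 changed by 0.08 and 0.04.

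**Figure D4:**
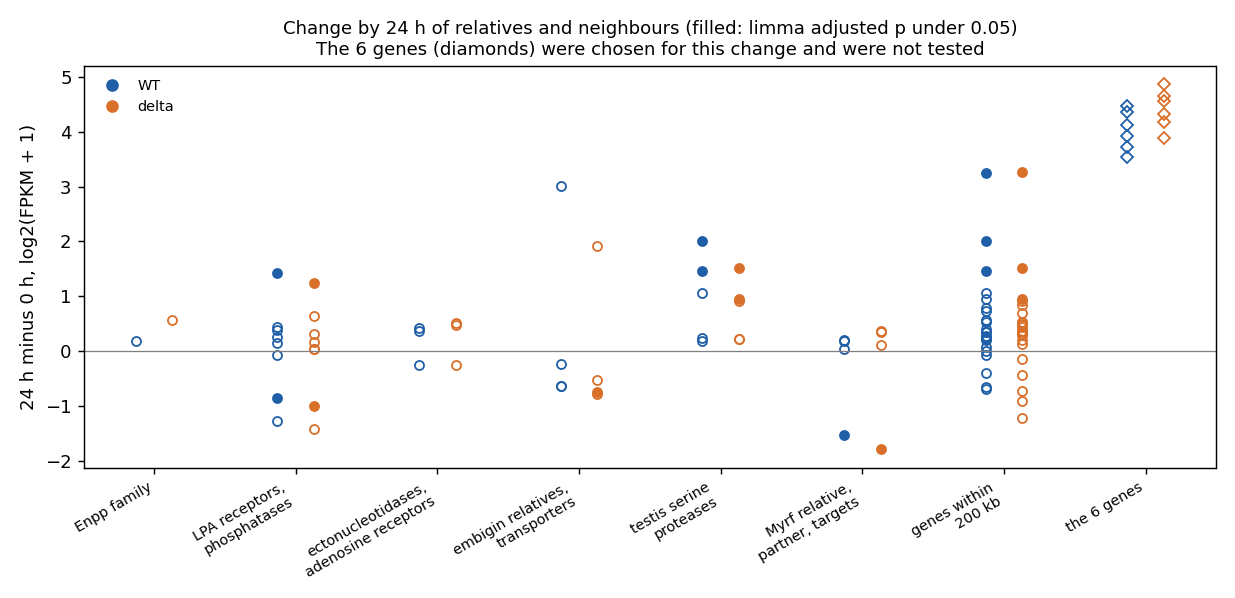
Change from 0 h to 24 h on the log2(FPKM + 1) scale for the measured relatives of each gene by list, for genes whose start lies within 200 kb, and for the 6 genes themselves (diamonds, not tested), with WT in blue and delta in orange; filled points passed limma's adjusted p of 0.05. Most relatives lie between −2 and 2, Prss45 and Prss46 are filled in both genotypes, and the highest neighbour, at 3.24 and 3.27, is Gm17509.

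Markers of other cell types were read in the same way, and the genes named here were singled out after their values were seen. Of 10 trophoblast markers 4 were kept: Cdx2 (−2.73 in WT, −2.03 in delta) and Tfap2c (−3.34 and −3.34) fell in both genotypes, and Ascl2 rose in WT (1.18). Of 14 germ cell and testis markers 11 were kept. In WT Ddx4 (0.89) and Mael (1.31) rose and Prdm14 (−2.28), which is also a naive marker, fell. In delta Mael (1.60) and Tex14 (1.07) rose and Prdm14 (−2.60) and Prdm1 (−0.89) fell. Of 14 fibroblast markers 6 were kept, with 0 called by limma in WT (1 higher at an unadjusted p under 0.05, Dcn, which voom called) and Dcn higher in delta (1.06). Of 11 primitive endoderm markers 1 was kept and 0 were called by limma or voom, also at an unadjusted p under 0.05. With no filter on low values the calls of Ddx4, Ascl2 and Mael in WT and of Tex14 and Prdm1 in delta were lost. The calls of Cdx2, and of Dcn in delta, held with no filter. Cdx2 had passed the filter only through 0 h libraries, and Dcn only through 24 h libraries. Those of Ddx4 and Mael in WT were also lost with quantile normalization, and that of Mael with voom and with a pseudocount of 0.1. The calls of Ddx4, Ascl2 and Mael in WT were each lost without WT 0 h replicate 2, WT 24 h replicate 1 and some other libraries, with adjusted p up to 0.16, 0.15 and 0.26. The call of Prdm14 in WT was lost without WT 0 h replicate 2 or WT 24 h replicate 2 (up to 0.066). In delta, Mael, Tex14 and Prdm1 were lost without delta 24 h replicate 1, and Tex14 and Prdm1 also without other libraries (up to 0.11, 0.13 and 0.17).

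Of 24 measured genes that start within 200 kb of one of the 6 loci, 3 (12.5%) rose and 0 fell in each genotype (limma), beside 5.27% and 7.58% of all genes that rose in WT and delta. The 3 are Gm17509, which overlaps Emb on the opposite strand and may share its reads, and Prss46 and Prss45, which both lie beside Prss50. Of these, Prss45 passed the filter on low values only through its 24 h libraries. The median change was 0.32 in WT and 0.37 in delta, from −0.69 to 3.24 and from −1.21 to 3.27. Near Enpp2, the transcription factor subunit gene Taf2 (119 kb) changed by 0.21 in WT and Deptor, an inhibitor of mTOR (159 kb), by 0.79 (adjusted p = 0.16). Near Enpp3, the Mediator subunit gene Med23 (27.2 kb) changed by 0.36. Near Myrf, the fatty acid desaturase genes Fads1 (57.9 kb) and Fads2 (139 kb) changed by −0.40 and 0.41 and Fen1 (36.6 kb) by 0.23. Near Foxi3, the kinase gene Eif2ak3 changed by 0.54, and near Prss50 the Nodal co-receptor gene Tdgf1 (88.2 kb) changed by −0.69 (adjusted p = 0.35).

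The 6 genes were not equally alike over the 12 libraries. Pearson's r of log2(FPKM + 1) ran from 0.659 for Enpp2 with Prss50 to 0.988 for Enpp3 with Myrf. All genes chosen for a rise from 0 h to 24 h correlate through that rise, so these values in large part reflect the choice. The genes most like each one by this measure are given as a description. For Enpp2 they were Wt1 (0.990), Slc5a4b (0.989) and Cilp2 (0.989), all low until 12 h. Wt1, a zinc finger transcription factor gene, had group means of 0.0381, 0.226 and 4.55 FPKM at 0, 12 and 24 h in WT. For Enpp3 they were the collagen gene Col18a1 (0.993), the sphingosine-1-phosphate receptor gene S1pr2 (0.991) and the grainyhead-like factor gene Grhl2 (0.990), and for Myrf the phosphatase gene Dusp4 (0.994), S1pr2 (0.994) and Pcsk1n (0.992). For Emb they were the Wnt receptor gene Fzd7 (0.992), Soat2 (0.992) and Snrpn (0.990). For Foxi3 they were Hmgxb4 (0.990), Igsf9 (0.985) and Nlrp14 (0.984). Prss50 had the lowest values, with Dok2 (0.978), Sox11 (0.974) and Prdx6 (0.973). Dok2 stood at 7.17 and 6.91 FPKM in WT and delta at 12 h and at 9.58 and 9.60 at 24 h. Prss50 stood at 18.8 and 9.80 FPKM at 12 h and at 24.6 and 15.2 at 24 h. Its genotype difference at 12 h was not called. By Spearman's rho 1 of 3 such genes was the same for Emb (Fzd7) and for Foxi3 (Hmgxb4) and 0 of 3 for each of the other 4.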

How the data were processed

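Levels are FPKM as the authors deposited them, 1 column per library. The submitters' processing notes list cutadapt, STAR 2.5.2b, featureCounts 1.5.1, edgeR 3.16.5 and mm10, without roles; strand setting and annotation release are not given in the sources used here. The 6 genes and the 15 gene lists were chosen with earlier results of these data known.

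Genes of at least 1 FPKM in at least 2 libraries (13981) entered one limma 3.58.1 model with trend (R 4.3.3) of log2(FPKM + 1), with a mean for each of 6 groups and no replicate block. Its p-values were 2-sided and adjusted by Benjamini-Hochberg over all genes, with a threshold of 0.05. The script was tested on simulated data. With GENCODE M21 lengths, FPKM values were whole multiples of 1 read (within 0.01 reads) in 80.1% of 28657 genes above 0. For the other 5693 a length was searched until the values became whole reads, so their fit is no check. Both sets gave depth (median 12189887 reads) and reads for voom. For Enpp3 (2815 against 6017), Emb (2253 against 6906) and Enpp2 (3473 against 5779) the length found by this search was shorter than annotated, and their reads rest on it.

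Same-numbered WT and delta libraries deviated together (correlations 0.70, 0.28 and 0.37 at 0, 12 and 24 h). Between different times the correlations ran from −0.066 (WT 12 h with delta 0 h) to 0.46 (WT 12 h with WT 24 h). Replicate numbers, from the titles, were treated as pairs for ratios and counts of pairs. The main model did not use them. Named genes were the 6, the 3 most like each by Pearson's r, up to 3 most abundant of a list, those near a locus (200 kb) and Tcf15; others are marked. The result of 1 listed gene is not reported here. Alternatives were another pseudocount, other filters, quantile normalization, voom, replicate blocks, each library left out, Spearman's rho and a window of 100 kb.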

Additional observations from a re-analysis of the deposited data

Results flagged for a closer look

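For Enpp3 and Foxi3, delta lay below WT in both same-numbered pairs at 0 h and above WT in both pairs at a later time. The share of all genes that did so was not computed, so this describes these genes only. For Enpp3, delta minus WT was larger at 12 h than at 0 h by 0.606 log2 units and larger at 24 h than at 0 h by 0.602. For Foxi3 it was larger at 24 h than at 0 h by 1.12, with 2 and 5 reads behind the delta values at 0 h. The difference between times was not tested. The 0 h libraries are among those that chose the genes.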

How the results depend on the processing

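No alternative called any of the 6 genes between genotypes: 0 of 6 at 12 h (adjusted p 0.96 to 1) and 0 of 6 averaged over times (0.14 to 1.00), also with the replicate block (0 and 0) and with each library left out (0 to 0). Without a block, 2 genes were lower at 12 h, against 1 with quantile normalization, 1 with voom on recovered reads and 0 to 2 (higher 0 to 1) with a library left out. Averaged over times, 0 were higher and 2 lower, against 3 and 7 with no filter, 2 higher with the block within each time, and 0 higher and 2 lower with any library left out.

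The rises and falls by 24 h, 737 and 690 in WT and 1060 and 1091 in delta, were 1080, 1011, 1450 and 1519 with the replicate block. With a block within each time, added after seeing the data, they were 2394, 2564, 3007 and 3222. Voom gave 763, 675, 1075 and 1114. With a library left out they ran from 311 to 1145 and 276 to 1301 in WT, lowest without the WT 24 h libraries (311 and 285 without replicate 1, 431 and 276 without replicate 2) and highest without the delta 0 h libraries (1143 and 1301, 1145 and 1285). In delta they ran from 382 to 2223 and 393 to 2862, lowest without the delta 24 h libraries (453 and 463, 382 and 393) and highest without delta 0 h replicate 2.

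Of the genotype values of the 6 genes, 10 changed sign with a library left out, none of them called; their ranges follow. At 12 h these were −0.17 to 0.055 for Enpp2 (without delta 12 h replicate 1 and 2), −0.066 to 0.70 for Enpp3 (the same libraries), −0.38 to 0.93 for Myrf (without WT 12 h replicate 2 and 1) and −0.23 to 0.085 for Foxi3 (without WT 12 h replicate 1 and 2). Averaged over times they were −0.12 to 0.055 for Enpp2 (without delta 24 h replicate 1 and 2), −0.014 to 0.24 for Enpp3 (without delta 12 h replicate 1 and 2), −0.071 to 0.36 for Myrf (without WT 12 h replicate 2 and 1) and −0.28 to 0.013 for Foxi3 (without WT 0 h replicate 1 and 2). The cause was not tested. Tcf15 at 12 h kept its sign, with an adjusted p of 0.0014 with the replicate block, 0.060 with quantile normalization, 0.12 with no filter and 0.30 with voom.

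The 24 h levels rest on 286 to 4180 reads a gene and library, while 0 h levels of Enpp2, Prss50 and Foxi3 rest on 0 to 28. With voom the log2 rise of Enpp2 was 8.30 in WT and 9.32 in delta. Within 100 kb in place of 200 kb, the same 3 neighbours rose.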
